A study of Mus musculus with 10 samples.

Results

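The genes described here are 10 members of the unfolded protein response and the integrated stress response: *Xbp1*, *Atf4*, *Atf6*, *Ddit3*, *Hspa5*, *Hsp90b1*, *Trib3*, *Chac1*, *Asns* and *Sesn2*. They were taken by gene symbol from the 54532 genes of the deposited table, as a list drawn up with earlier results of these data known. A second entry named *Ddit3*, 105 bases long and at 0 in every retina, was left out, so that 10 genes of 11 entries were described, and all 10 were among the 24508 genes tested. RNA-seq was done on neural retinas from BALB/c mice aged 2 months, which are albino and lack the melanin that screens the eye from light. All mice were first kept in the dark for 12 hr. For 5 samples they then had normal light of 200 lux for 1 day (NL-1, NL-4, NL-5, NL-7 and NL-8), and for the other 5 they had 15000 lux for 1 day, the light damage condition (LD-1, LD-4, LD-6, LD-7 and LD-8). No allele or agent other than the light distinguished the groups, and the study calls the 5 samples of a group biological replicates without naming the mouse behind each, so that p-values measure the spread between these samples.

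The unfolded protein response is the reaction of a cell to misfolded protein in the endoplasmic reticulum (ER), the compartment where secreted and membrane proteins fold. Its sensors in the ER membrane are IRE1, PERK and ATF6. IRE1 splices the *Xbp1* mRNA, cleaved ATF6 enters the nucleus, and both routes raise chaperone genes such as *Hspa5*. PERK is also one of the kinases of the integrated stress response, which phosphorylate the translation factor eIF2alpha in answer to ER stress, lack of amino acids, double-stranded RNA or lack of heme. Phosphorylated eIF2alpha lowers protein synthesis in general but favours translation of the *Atf4* mRNA, and the ATF4 protein then switches on genes of amino acid supply and stress. Rod photoreceptors make large amounts of the membrane protein rhodopsin in their ER, and both responses have been studied in retinal degeneration. Much of this signalling acts on proteins and on splicing, whereas the values here count all the mRNA of a gene together.

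The deposited values are FPKM, fragments per kilobase of gene and library size. The NL retinas had 21343389 to 26832535 reads each, and the LD retinas 18965090 to 23378090. Within a group most pairs of retinas differed by a chi-square per gene of 12.2 to 44.0 in their reads, but LD-4 and LD-6 (2.67), NL-5 and NL-7 (3.04) and LD-1 and LD-7 (3.70) were much closer to each other, though not within counting noise. Whether these close retinas came from separate mice is not given in the sources used here, and if they did not, fewer than 5 independent animals stand behind a group. The 10 samples were kept as labelled, and each member's values with these pairs averaged are given where they end a call. The tissue label was checked against markers: those of rods, cones, Müller glia, bipolar, amacrine and ganglion cells were all present in the NL retinas, and markers of lens summed to at most 1.21 FPKM in any retina.

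The 4 members grouped here as effectors of ATF4, *Trib3*, *Chac1*, *Asns* and *Sesn2*, rose in the LD retinas. *Ddit3*, which also acts downstream of ATF4, rose less (log2 fold change 0.36). The mRNAs of *Atf4* and *Atf6* did not pass the test. *Chac1* (log2 fold change 2.13, SE 0.30) and *Asns* (1.35, SE 0.06) passed the study's own thresholds, a fold change above 2 with an adjusted p under 0.01, and no member fell, also at an unadjusted p under 0.05 and by limma-voom on the recovered reads. That is 2 of 10 members called higher, where 4.13% of all genes tested were called higher and 2.37% lower. At an adjusted p under 0.01 with any fold change, *Trib3* and *Sesn2* were also higher, 4 of 10 against 9.30% higher and 7.74% lower of all genes. At an adjusted p under 0.05, *Ddit3*, *Hspa5* and *Xbp1* joined them, 7 of 10 higher and none lower against 14.5% higher and 13.4% lower of all genes. *Atf4*, *Atf6* and *Hsp90b1* did not pass. In 6 of the 10 genes every LD retina lay above every NL retina, which was the case for 11.8% of all genes tested, and in none did every LD retina lie below (10.6% of all genes). The median log2 fold change was 0.35 over the members and −0.01 over all genes. Fold changes and adjusted p-values are from limma on log2(FPKM + 0.1) over all genes tested, and exact p-values are from two-sided permutation of the retinas, for which 0.00794 is the smallest possible value with 5 against 5.

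**Figure D1:**
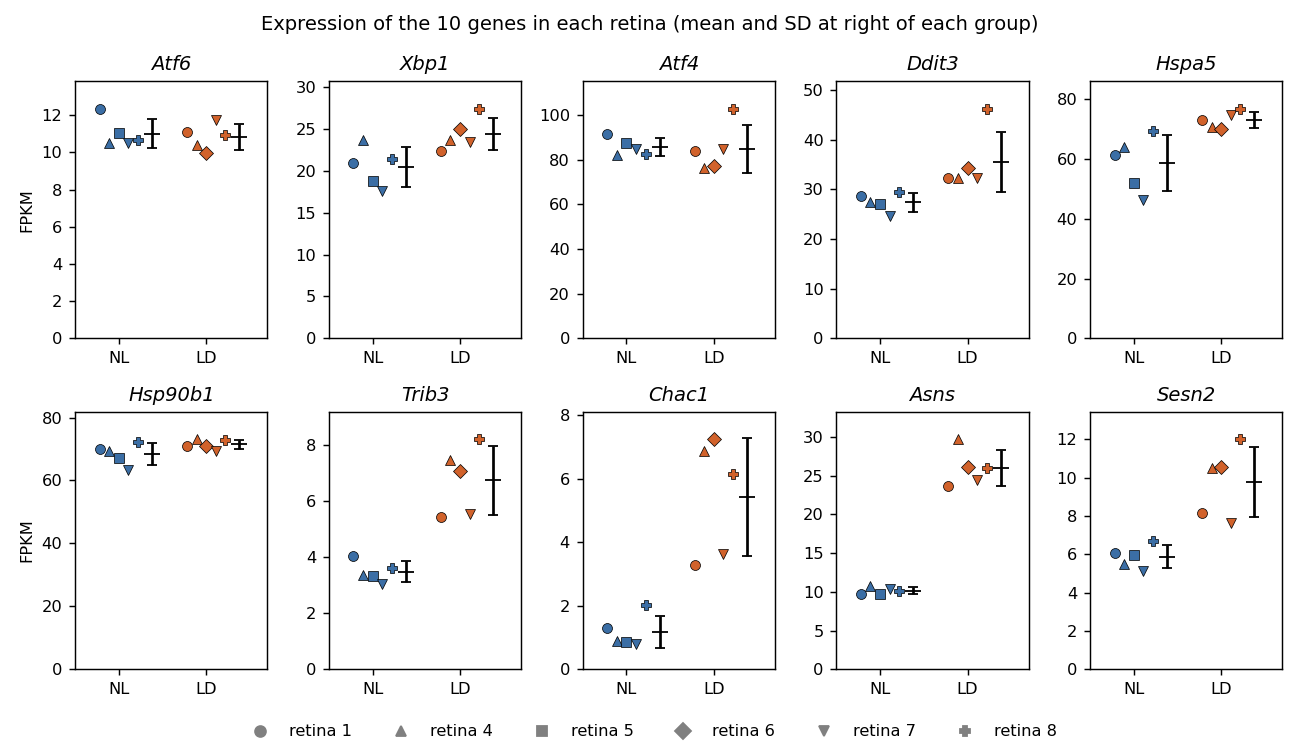
FPKM (linear axes from 0) of the 10 genes in each of the 5 NL and 5 LD retinas, with the mean and SD of each group at its right and a marker shape for each retina number. The groups do not overlap for *Trib3*, *Chac1*, *Asns*, *Sesn2*, *Ddit3* and *Hspa5*, whereas those of *Atf6*, *Atf4*, *Xbp1* and *Hsp90b1* overlap.

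The upstream DNA of the members that changed most is shown first, because ATF4 and the ER stress factors bind short elements in the promoters of their targets. ATF4 binds, with a C/EBP partner, to an element that was searched as TGATGNAA on both strands, in the 250 bases before the RefSeq start of each gene. Of the 9 members with a RefSeq promoter (all but *Atf6*), *Chac1* and *Asns* held a match, and 3.45% of 32851 mouse promoters did. The upstream sequence of *Chac1* outside the deposited gene is given on the plus strand of GRCm38.p6, with the match in capitals, here as its reverse complement.
Chac1, chr2:119350992-119351228, plus strand: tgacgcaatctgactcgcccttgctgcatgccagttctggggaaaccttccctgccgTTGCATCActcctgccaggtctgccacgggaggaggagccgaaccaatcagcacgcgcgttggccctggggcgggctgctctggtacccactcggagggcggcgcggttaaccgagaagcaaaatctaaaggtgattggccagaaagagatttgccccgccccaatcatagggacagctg

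The match of *Asns* is shown with its flanks, beside those of the other genes of the pathway that were called higher and held one. They are printed 5′ to 3′ along each gene's own strand, with the match in capitals, so that the element itself can be compared. Of the 10 pathway genes called higher besides the members, 5 held a match (*Atf3*, *Nupr1*, *Pycr1*, *Slc7a11* and *Tars*), beside 3.91% of 27025 mouse genes with a promoter. The pathway lists were drawn up by known roles, the ATF4 axis among them, so this count is not a test of the element. Matches also stood in pathway genes that were not called: *Aars*, *Gars* and *Pck2* were higher and *Vldlr* and *Txndc5* lower at an adjusted p under 0.05, *Herpud1* and *Cdnf* did not pass, and *Fgf21* was not tested.
Asns, chr6:7693214-7693243, minus strand: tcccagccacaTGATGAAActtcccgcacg
Atf3, chr1:191183425-191183454, minus strand: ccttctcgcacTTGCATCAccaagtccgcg
Nupr1, chr7:126625562-126625591, minus strand: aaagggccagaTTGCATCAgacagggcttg
Pycr1, chr11:120643833-120643862, minus strand: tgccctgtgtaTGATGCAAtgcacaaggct
Slc7a11, first match, chr3:50443661-50443690, minus strand: tctcatgtggcTGATGCAAacctggagaat
Slc7a11, second match, chr3:50443642-50443671, minus strand: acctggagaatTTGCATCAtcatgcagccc
Tars, chr15:11399659-11399684, minus strand: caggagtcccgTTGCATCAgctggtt
The *Asns* match stands at bases 23 to 16 before the start and the *Chac1* match at bases 193 to 186. In *Asns* the element reads TGATGAAA, and in the other genes shown it reads TGATGCAA on one strand or the other. No match was found in this window for *Trib3*, *Sesn2*, *Ddit3*, *Atf4*, *Xbp1*, *Hspa5* or *Hsp90b1*, which says only that these letters are not there.

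The ER stress response element, through which ATF6 and XBP1 act on chaperone genes together with the CCAAT factor NF-Y, was searched on both strands as CCAAT, 9 bases of any kind and CCACG. *Hspa5* and *Hsp90b1* held it, and 0.113% of all promoters did.
Hspa5, chr2:34772020-34772048, plus strand: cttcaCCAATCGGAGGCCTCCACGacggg
Hsp90b1, distal match, chr10:86705633-86705661, minus strand: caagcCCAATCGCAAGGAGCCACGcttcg
Hsp90b1, proximal match, chr10:86705528-86705556, minus strand: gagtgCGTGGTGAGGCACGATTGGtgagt
The capitals mark the element, and the proximal *Hsp90b1* match is its reverse complement. The element stands at bases 65 to 47 before the start of *Hspa5*, and at bases 212 to 194 and 107 to 89 before that of *Hsp90b1*. With 1 mismatch allowed in the last 5 letters, *Ddit3* also held a match, as did 0.904% of promoters. The element TGACGTGG was found in none of the 9 promoters and in 0.563% of all. The windows of *Asns* and *Hspa5* lie inside the deposited genes, which begin before the RefSeq start. These matches describe the letters of the reference and are not measurements of binding.

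*Chac1*, on chromosome 2 (GRCm38 positions 119351229 to 119354381, plus strand), codes for an enzyme that degrades glutathione and is a known target of ATF4 and CHOP. It read 1.29, 0.891, 0.842, 0.806 and 2.01 FPKM in NL-1, NL-4, NL-5, NL-7 and NL-8. In LD-1, LD-4, LD-6, LD-7 and LD-8 it read 3.28, 6.87, 7.24, 3.62 and 6.15 FPKM. No LD value reached down into the NL range, but LD-1 and LD-7 were well below the other LD retinas, and NL-8 stood highest of its group. The means (± SD, n = 5 samples per group here and for all genes) were 1.17 ± 0.510 and 5.43 ± 1.85 FPKM, with a log2 fold change of 2.13 (95% interval 1.48 to 2.79, adjusted p = 3.82e-04, exact p = 0.00794). These levels are low, resting on 28 to 85 reads in an NL retina and 131 to 265 in an LD retina, and the change was 1.54 at a pseudocount of 1, still called. *Chac1* was the member with the lowest FPKM and the highest fold change.

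*Asns* makes asparagine from aspartate and glutamine and is a classical target of ATF4 under lack of amino acids. It lies on chromosome 6 (7675169 to 7693254, minus strand). The 5 NL retinas were within 9.71 to 10.8 FPKM, with a median of 10.1. LD-1, LD-4, LD-6, LD-7 and LD-8 read 23.6, 29.7, 26.2, 24.4 and 26.0 FPKM. Thus the lowest LD retina was more than 2-fold above the highest NL retina, and the spread in each group was small beside the change. The group means of 10.1 ± 0.441 and 26.0 ± 2.33 FPKM gave a log2 fold change of 1.35 (SE 0.06, 95% interval 1.21 to 1.49, adjusted p = 1.79e-07, exact p = 0.00794). Leaving out any 1 retina kept the log2 fold change of *Asns* within 1.30 to 1.38.

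*Trib3*, a pseudokinase that is induced by ATF4 and CHOP and binds AKT, lies on chromosome 2 (152337422 to 152344032, minus strand). It read 4.03, 3.37, 3.31, 3.04 and 3.61 FPKM in the NL retinas, in the order of their numbers. The LD retinas read 5.40, 7.45, 7.07, 5.52 and 8.18 FPKM. Again LD-1 and LD-7 were the lowest of the LD group, and all 5 were above the NL group. The means were 3.47 ± 0.372 and 6.72 ± 1.22 FPKM. Its log2 fold change of 0.92 (SE 0.13, adjusted p = 3.42e-04, exact p = 0.00794) was just under the 2-fold threshold. It passed that threshold as TPM (1.04) and without the authors' factor per retina (1.05), but these scalings moved the median of all genes by 0.11 and 0.12, and less that shift it was 0.93 in both.

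*Sesn2*, on chromosome 4 (132492032 to 132510501, minus strand), codes for sestrin 2, a leucine sensor that restrains mTORC1 and is raised by ATF4 and other stress factors. Its NL values were 6.07, 5.51, 5.94, 5.14 and 6.70 FPKM. Its LD values were 8.17, 10.5, 10.6, 7.63 and 12.0 FPKM. The groups did not overlap, and the order of the LD retinas was like that for *Trib3*, with LD-8 highest and LD-1 and LD-7 lowest. The mean went from 5.87 ± 0.592 to 9.77 ± 1.82 FPKM, a log2 fold change of 0.71 (SE 0.13, adjusted p = 0.00175, exact p = 0.00794). After averaging the closest pairs it was 0.74, with an adjusted p of 0.0120.

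Among the transcription factors, *Ddit3* and *Xbp1* were higher in LD at an adjusted p under 0.05. *Ddit3* codes for CHOP, which acts downstream of ATF4 and can drive cell death under lasting stress. It lies on chromosome 10 (127290774 to 127296288, plus strand). Its NL values were 28.7, 27.4, 27.0, 24.5 and 29.4 FPKM and its LD values were 32.2, 32.4, 34.3, 32.3 and 46.2 FPKM. The groups did not overlap, but LD-8 stood far above the other LD retinas. The means of 27.4 ± 1.87 and 35.5 ± 6.07 FPKM gave a log2 fold change of 0.36 (SE 0.10, adjusted p = 0.0210, exact p = 0.00794), and without LD-8 this was 0.26. The adjusted p was 0.0528 without NL-7 and 0.0652 after averaging the closest pairs, so that the gene passed neither time. *Ddit3* shares 68 exon bases with *Mars*, the methionyl-tRNA synthetase gene on the opposite strand, which had a log2 fold change of 0.57 (adjusted p = 9.45e-04), and the counting is not stated to use strand.

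*Atf4*, on chromosome 15 (80255184 to 80257541, plus strand), had the highest level of the 10 genes in both groups. It read 91.5, 82.2, 87.5, 84.6 and 82.5 FPKM in the NL retinas. The LD values were 84.1, 76.3, 77.0, 84.6 and 103 FPKM, so that LD-4 and LD-6 were below every NL retina and LD-8 was above every one. The means were 85.7 ± 3.90 and 85.0 ± 10.7 FPKM. The log2 fold change of −0.02 had a 95% interval of −0.19 to 0.16 (adjusted p = 0.890, exact p = 0.865).

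*Atf6* and *Xbp1* belong to the other branches of the ER response. *Atf6*, on chromosome 1 (170704674 to 170867771, minus strand), ranged from 10.5 to 12.4 FPKM in NL and from 9.95 to 11.7 FPKM in LD, with medians of 10.7 and 10.9 FPKM and SDs of 0.784 and 0.683 FPKM. The groups overlapped almost wholly, and the log2 fold change of −0.02 had a 95% interval of −0.16 to 0.11 (adjusted p = 0.812, exact p = 0.659). The signs of *Atf4* and *Atf6* turned to 0.08 each as TPM, a scaling that moves the median of all genes by 0.11, and neither passed an adjusted p of 0.05 there.

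*Xbp1*, on chromosome 11 (5520659 to 5525893, plus strand), was slightly higher in LD. Its NL values were 20.9, 23.7, 18.8, 17.6 and 21.4 FPKM and its LD values were 22.4, 23.7, 25.0, 23.4 and 27.4 FPKM. NL-4 reached the level of the middle LD retinas, so the groups overlapped. The means of 20.5 ± 2.39 and 24.4 ± 1.93 FPKM gave a log2 fold change of 0.26 (SE 0.08, adjusted p = 0.0431, exact p = 0.0238), and it is the weakest of the 7. Without any 1 of 8 of the retinas (all but NL-4 and LD-1) its adjusted p was above 0.05, up to 0.0997 without NL-5, and it was 0.144 with the closest pairs averaged. The value counts the spliced and unspliced mRNA together, so the splicing by IRE1 was not measured.

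Of the ER chaperones, *Hspa5* was higher in LD at an adjusted p under 0.05, and *Hsp90b1* did not pass. *Hspa5*, on chromosome 2 (34771970 to 34777547, plus strand), codes for BiP, the chaperone that also holds the sensors inactive. NL-1, NL-4, NL-5, NL-7 and NL-8 read 61.1, 64.1, 51.9, 46.3 and 69.3 FPKM. The LD retinas read 72.9, 70.7, 69.9, 74.6 and 76.8 FPKM. The LD values were close together and all above the NL values, but the gap between NL-8 and the lowest LD retina was small. The means were 58.5 ± 9.31 and 73.0 ± 2.82 FPKM, with a log2 fold change of 0.33 (SE 0.10, adjusted p = 0.0300, exact p = 0.00794). The adjusted p of *Hspa5* was 0.0734 without NL-5, 0.0637 without LD-8, 0.0566 without LD-7 and 0.0506 without LD-1, and 0.137 with the closest pairs averaged.

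The second chaperone, *Hsp90b1*, on chromosome 10 (86690209 to 86705509, minus strand), codes for GRP94, the HSP90 of the ER. It ranged from 63.2 to 72.2 FPKM in NL and from 69.5 to 73.0 FPKM in LD. The means were 68.4 ± 3.41 and 71.5 ± 1.48 FPKM, and the log2 fold change of 0.07 had a 95% interval of −0.03 to 0.16 (adjusted p = 0.305, exact p = 0.0794). It had 0.17 as TPM (adjusted p = 0.0183) and 0.20 without the factor per retina (adjusted p = 0.00584), and those scalings moved the median of all genes by 0.11 and 0.12. *Hsp90b1* shares 415 exon bases with *1810014B01Rik* on the opposite strand, which read 2.89 FPKM in NL and 2.92 FPKM in LD. On the same strand it shares 84 with *Gm15344*, which went from 6.56 to 4.51 FPKM (log2 fold change −0.55, adjusted p = 0.0110 by limma). It also shares 133 with *Gm25745* on that strand, which had a mean of 0 in both groups.

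**Figure D2:**
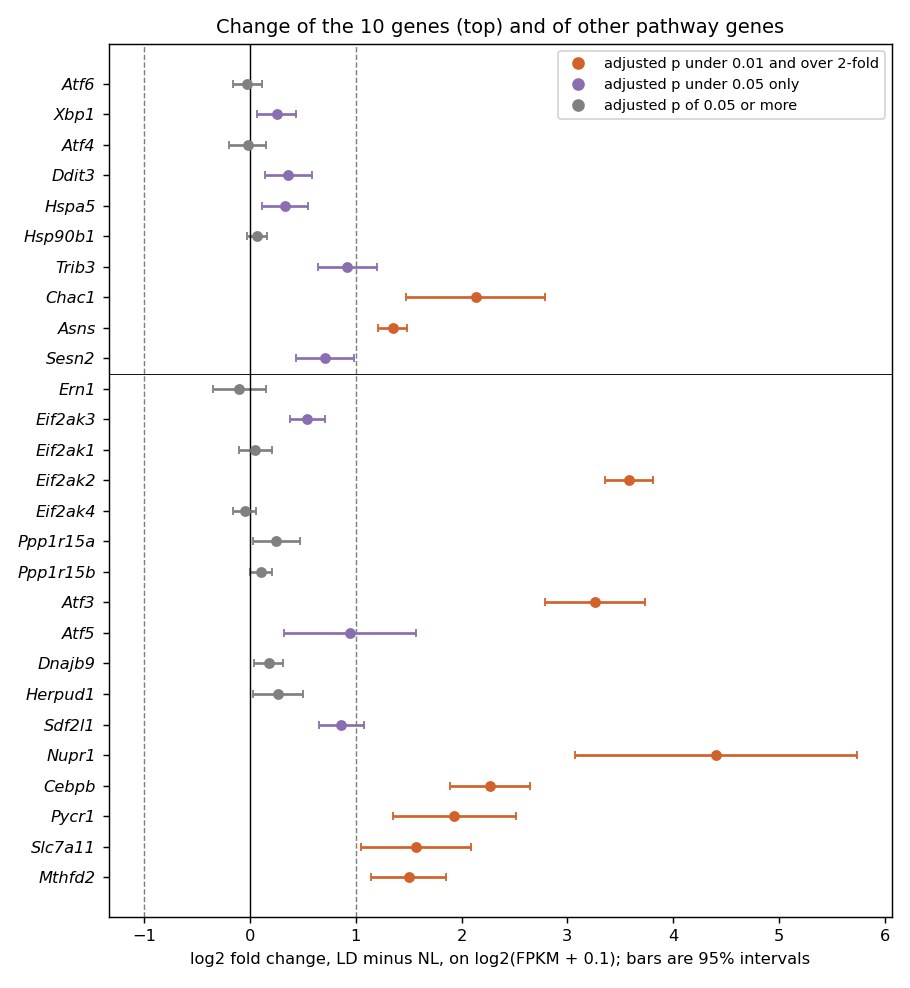
Log2 fold change of LD over NL on the scale of log2(FPKM + 0.1), with its 95% interval, for the 10 genes (above the line) and other named genes of the pathway (below it); dashed lines mark 2-fold. Among the 10 genes *Chac1* and *Asns* lie beyond 2-fold with their whole intervals, and the intervals of *Atf4*, *Atf6* and *Hsp90b1* hold 0.

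In the NL retinas the levels per length fell into an order from *Atf4* (85.7 FPKM), through *Hsp90b1* (68.4) and *Hspa5* (58.5), to *Ddit3* (27.4), *Xbp1* (20.5), *Atf6* (median 10.7), *Asns* (10.1), *Sesn2* (5.87), *Trib3* (3.47) and *Chac1* (1.17). In this order *Hsp90b1* overlapped with *Hspa5* and *Atf6* with *Asns* in their ranges, and the other neighbours did not overlap. In the LD retinas *Asns* (26.0 FPKM) stood above *Xbp1* (24.4) and *Atf6* (10.8), overlapping with *Xbp1*. *Atf4*, *Hspa5* and *Hsp90b1* overlapped at the top, and *Atf6*, *Sesn2* (9.77), *Trib3* (6.72) and *Chac1* (5.43) overlapped each with the next at the bottom.

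A ratio of 2 genes in the same retina does not depend on how the libraries were scaled. *Asns* was 10.6 to 13.1% of *Atf4* under NL and 25.3 to 38.9% under LD. *Chac1* went from 0.952 to 2.44% of *Atf4* in NL to 3.90 to 9.40% in LD. The ratio of *Trib3* to *Atf4* was 3.59 to 4.40% in NL and 6.42 to 9.76% in LD. *Sesn2* was 6.07 to 8.12% of *Atf4* in NL and 9.02 to 13.8% in LD. All 4 ratios to *Atf4* therefore kept the groups apart. Against *Hspa5*, those of *Asns* (14.5 to 22.3% and 32.4 to 42.0%), *Chac1* and *Trib3* did so too, whereas *Sesn2* overlapped (8.60 to 11.4% in NL and 10.2 to 15.6% in LD). The 4 genes already kept the groups apart in FPKM, so the ratios reuse those values and are not separate support.

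Single LD retinas stood at the top or the bottom of their group for several genes. LD-8 had the highest value of the LD group in 6 of the 10 genes, LD-4 in 2, and LD-6 and LD-7 in 1 each. *Chac1*, *Trib3* and *Sesn2* were lowest in LD-1 and LD-7, a pair of retinas that were also close to each other over all genes, as were LD-4 and LD-6, the highest for *Chac1*. In the NL group, NL-8 was the highest in 5 genes and NL-1 in 3. Without NL-1 and NL-8, a setting chosen after the values were seen, the log2 fold change of *Chac1* was 2.47, that of *Trib3* was 1.01 and that of *Asns* was 1.33, and 3 of 10 members were called higher.

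**Figure D3:**
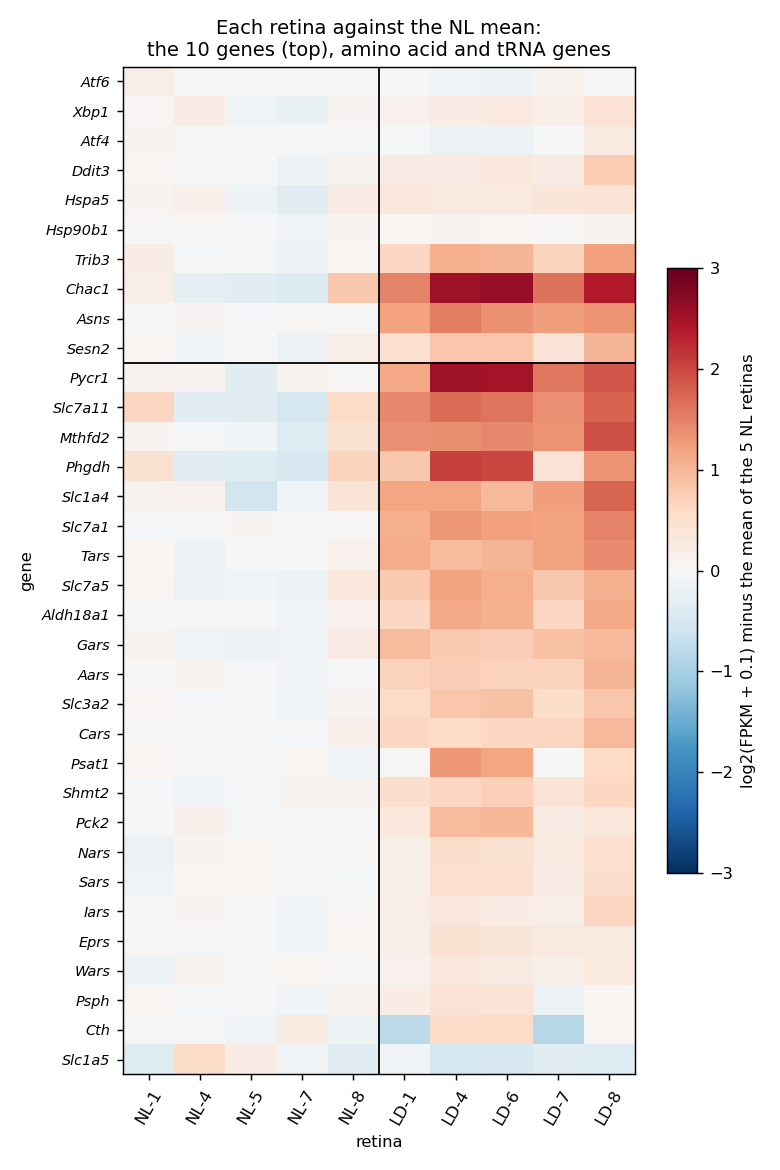
Log2(FPKM + 0.1) of each retina minus the mean of the 5 NL retinas, for the 10 genes (top) and the 24 genes of amino acid supply and tRNA charging (below, ordered by their change), with the scale from −3 (blue) to 3 (red). Most rows below *Hsp90b1* are red in all 5 LD columns, with *Chac1*, *Pycr1* and *Phgdh* strongest in LD-4 and LD-6.

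To place the members in their pathway, 98 other genes with known roles were read from the same comparison, of which 96 were tested (*Ern2* and *Fgf21* were too low). Of these, 10 were called higher and none lower by limma, beside 4.13% and 2.37% of all genes. At an adjusted p under 0.05, 41 were higher and 7 lower, beside 14.5% and 13.4% of all genes. With any fold change, 33 were higher and 4 lower at an adjusted p under 0.01, beside 9.30% and 7.74% of all genes. All LD values were above the NL values for 38 of the 96 genes and below them for 5, beside 11.8% and 10.6% of all genes. Their median log2 fold change was 0.17.

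The list with the most changes was that of amino acid supply and tRNA charging. Of its 24 genes, 20 were higher at an adjusted p under 0.05, 16 at an adjusted p under 0.01, and 6 were called, with none lower and a median log2 fold change of 0.71. Of all genes, 14.5%, 9.30% and 4.13% were higher at these thresholds. *Pycr1*, which makes proline in mitochondria, went from 0.385 ± 0.0550 to 1.86 ± 0.765 FPKM (log2 fold change 1.93, SE 0.26, adjusted p = 3.44e-04). *Slc7a11*, the cystine importer whose cargo feeds glutathione synthesis, went from 1.25 ± 0.530 to 3.68 ± 0.419 FPKM (1.57, SE 0.24, adjusted p = 6.40e-04, and 0.0134 with the closest pairs averaged, which ends the call). *Mthfd2*, of the mitochondrial folate cycle, went from 3.45 ± 0.792 to 9.89 ± 1.91 FPKM (1.50, SE 0.16, adjusted p = 6.80e-05). The groups did not overlap for any of these 3 genes. The other called genes of the list, named after their values were seen, were the amino acid transporters *Slc7a1* and *Slc1a4* (log2 fold change 1.27 each) and the threonyl-tRNA synthetase *Tars* (1.15).

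When this list was split after its values were seen, all 9 of its tRNA synthetases were higher at an adjusted p under 0.05, beside 14.5% of all genes. In each of the 9 every LD retina lay above every NL retina, beside 11.8% of all genes, and their median log2 fold change was 0.39. The list does not hold all synthetase genes and leaves out *Mars*, for example. Of the 15 enzymes and transporters, 11 were higher, with a median log2 fold change of 0.91. Within the serine pathway, *Phgdh* read 4.31, 10.3, 10.1, 3.30 and 6.34 FPKM in LD-1, LD-4, LD-6, LD-7 and LD-8, and 1.74 to 3.93 FPKM in NL (log2 fold change 1.33, adjusted p = 0.0165). *Psat1* read 22.2 and 20.5 FPKM in LD-4 and LD-6 but 9.25 and 9.02 FPKM in LD-1 and LD-7, beside 8.54 to 9.44 FPKM in NL, and did not pass (adjusted p = 0.0818). The groups overlapped for both genes, which were named after their values were seen, and the same pairs of LD retinas lay at the top and the bottom as for *Chac1*.

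Of the 10 factors tested of the ATF4 and CHOP axis, 3 were called higher, beside 4.13% of all genes. *Atf3*, a stress-induced repressor and activator of transcription, was 3.25 to 6.69 FPKM in NL and 34.1 to 53.4 FPKM in LD (log2 fold change 3.26, SE 0.21, adjusted p = 2.31e-06). *Nupr1*, a small chromatin-bound stress protein, read 4.07, 0.674, 0.549, 0.581 and 3.59 FPKM in NL and 26.3, 47.6, 47.8, 23.7 and 15.5 FPKM in LD. NL-1 and NL-8 thus stood well apart from the other NL retinas, and the log2 fold change of 4.40 had an SE of 0.60 (adjusted p = 3.46e-04, and 0.0107 with the closest pairs averaged, which ends the call). *Cebpb*, a C/EBP factor that can pair with ATF4, went from 1.51 ± 0.411 to 7.50 ± 0.873 FPKM (2.27, SE 0.17, adjusted p = 6.33e-06). *Atf5*, translated like *Atf4*, went from 16.8 ± 6.22 to 32.3 ± 10.9 FPKM with overlap (0.95, SE 0.28, adjusted p = 0.0293). Its adjusted p was above 0.05 without NL-4, NL-5, NL-7, LD-4, LD-6 or LD-8, at 0.0555 to 0.0703. Without NL-1 and NL-8 together it was called, at 1.31, and it overlaps *Nup62* and *Il4i1* on the opposite strand.

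*Ddit4* and *Vldlr* of the same list fell at an adjusted p under 0.01, without reaching 2-fold. *Ddit4*, an inhibitor of mTORC1 that is also induced by glucocorticoids and hypoxia, read 71.3 to 106 FPKM in NL and 48.0 to 53.7 FPKM in LD (log2 fold change −0.72, adjusted p = 7.59e-04). *Vldlr*, a lipoprotein receptor also present in photoreceptors, read 36.6 to 41.1 FPKM in NL and 16.4 to 22.8 FPKM in LD (−0.93, adjusted p = 7.65e-05). Both were named after their values were seen.

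Among the kinases of eIF2alpha, those for double-stranded RNA and for ER stress were higher in LD. *Eif2ak2* codes for PKR, the sensor of double-stranded RNA and an interferon-induced gene. It was 0.976 to 1.26 FPKM in NL and 12.8 to 16.6 FPKM in LD (log2 fold change 3.58, SE 0.10, adjusted p = 8.02e-09). *Eif2ak3*, which codes for PERK, went from 7.71 ± 0.668 to 11.3 ± 0.977 FPKM without overlap (0.54, SE 0.08, adjusted p = 4.05e-04). The heme-regulated kinase *Eif2ak1* (0.05, adjusted p = 0.650) and the amino acid sensor *Eif2ak4* (−0.05, adjusted p = 0.516) did not pass. Neither did the phosphatase subunits that reverse the phosphorylation, *Ppp1r15a* (0.25, adjusted p = 0.0926) and *Ppp1r15b* (0.10, adjusted p = 0.142). The list of 11 kinases, phosphatase subunits and eIF2 or eIF2B subunits does not hold *Eif2ak3*, which was counted with the ER sensors. Of these 11, 2 genes (*Eif2ak2* and a subunit of eIF2 or eIF2B) were higher and none lower at an adjusted p under 0.05. The count of higher genes is near the 14.5% of all genes, and 13.4% of all genes were lower. The median log2 fold change of the list was 0.07.

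Of 5 sensors and processing enzymes of the ER response tested, only *Eif2ak3* was higher at an adjusted p under 0.05, beside 14.5% of all genes. None was lower at that threshold. *Ern1*, which codes for IRE1, went from 9.25 ± 0.773 to 8.70 ± 1.47 FPKM (log2 fold change −0.10, 95% interval −0.35 to 0.15, adjusted p = 0.561). Of 20 other ER chaperones and folding enzymes, 8 were higher and 2 (*Pdia4* and *Txndc5*) lower at an adjusted p under 0.05, beside 14.5% and 13.4% of all genes. None was called at 2-fold, and the median log2 fold change was 0.16. *Sdf2l1*, a BiP cofactor, had the highest change of them, from 5.40 ± 0.516 to 9.92 ± 1.20 FPKM (0.86, SE 0.10, adjusted p = 8.90e-05). Those with an adjusted p under 0.01 were *Sdf2l1*, *Pdia6* (0.55), *Manf* (0.47), *Pdia3* (0.45), *Calr* (0.30), *P4hb* (0.26) and *Canx* (0.18), of which all but *Sdf2l1* were named after their values were seen, as were *Pdia4* and *Txndc5*. The typical XBP1 target *Dnajb9* had 0.18 (adjusted p = 0.0526).

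In the list of ER-associated degradation, which exports misfolded protein to the proteasome, 2 of 18 genes were higher and 2 lower at an adjusted p under 0.05, counts near the 14.5% and 13.4% of all genes. The median log2 fold change of the list was 0.02. *Herpud1*, a subunit of the export complex, had 0.26 (adjusted p = 0.0887). Of 8 genes of the mitochondrial stress response 3 were higher, the chaperones *Hspa9* (0.38), *Hspe1* (0.42) and *Hspd1* (0.28), and *Yme1l1* was lower (−0.16), all 4 named after their values were seen. No gene of either list was called at 2-fold.

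**Figure D4:**
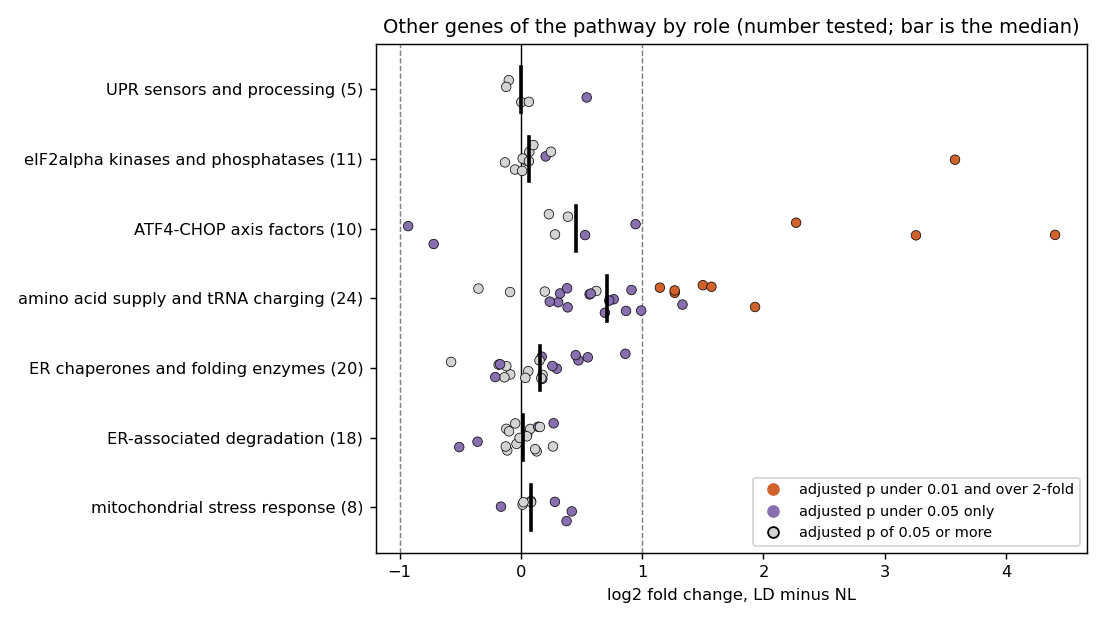
Log2 fold change of LD over NL for the 96 other pathway genes tested, 1 point per gene, by role with the number tested in brackets; bars are medians and dashed lines mark 2-fold. The points of amino acid supply and tRNA charging lie mostly above 0 (median 0.71), while those of ER-associated degradation lie around 0 (median 0.02).

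The cell type markers of the retina moved with the light in the same samples. The summed level of 6 rod markers was 7511 to 9236 FPKM in NL and 1031 to 2204 FPKM in LD, with 6 of 6 called lower. That of 5 cone markers went from 288 to 449 FPKM down to 35.5 to 148 FPKM, with 4 called lower. In the RNA of whole tissue, fewer cells of a type and less RNA per cell cannot be told apart. In retinal sections after 1 day of this light, the paper saw no obvious degeneration but more GFAP, a protein of reactive gliosis. After longer exposure it saw significant degeneration. Of 5 markers each of bipolar, amacrine and ganglion cells none passed an adjusted p of 0.05 in limma, and of 6 Müller glia markers 1 was lower (*Glul*, log2 fold change −2.09) and 2 were higher (*Sox9*, 0.79, and *Slc1a3*, 0.50) at that threshold. The marker genes singled out here and in the next paragraph were named after their values were seen.

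Microglia markers summed to 25.4 to 39.1 FPKM in NL and to 105, 66.8, 67.6, 87.5 and 44.1 FPKM in LD-1, LD-4, LD-6, LD-7 and LD-8, with 3 of 6 called higher. The 6 did not all rise, with log2 fold changes from −0.74 to 1.86. At an adjusted p under 0.05 by limma, 4 were higher and none lower. LD-8, with the highest *Trib3*, *Sesn2* and *Ddit3*, thus had the lowest sum of microglia markers in the LD group. Its rod sum of 2204 FPKM was the highest of the LD retinas, whereas LD-4 (1031 FPKM) and LD-6 (1106 FPKM), with the highest *Chac1*, had the lowest rod sums. Markers of recruited myeloid cells were low, summing to 0.192 to 0.492 FPKM in NL and 0.539 to 1.25 FPKM in LD. Of the 3 tested, 1 was higher at an adjusted p under 0.05 by limma. Endothelial markers summed to 33.3 to 44.1 FPKM in NL and 48.4 to 81.7 FPKM in LD, highest in LD-4 and LD-6, with 1 of 5 (*Kdr*) passing 0.05. The pigment epithelium markers overlapped (49.1 to 132 and 55.6 to 109 FPKM), with NL-8 and NL-1 the highest of the NL group. The part of any of these markers in the changes of the 10 genes was not tested.

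The changes of the 10 genes were computed again under 25 other settings. *Chac1* and *Asns* were called in every one of them, with an adjusted p of at most 0.00949 for *Chac1* and 6.25e-04 for *Asns*. The log2 fold change of *Chac1* lay within 1.54 and 2.47, and that of *Asns* within 1.28 and 1.48. *Trib3* and *Sesn2* kept an adjusted p of at most 0.0149 and 0.0147.

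**Figure D5:**
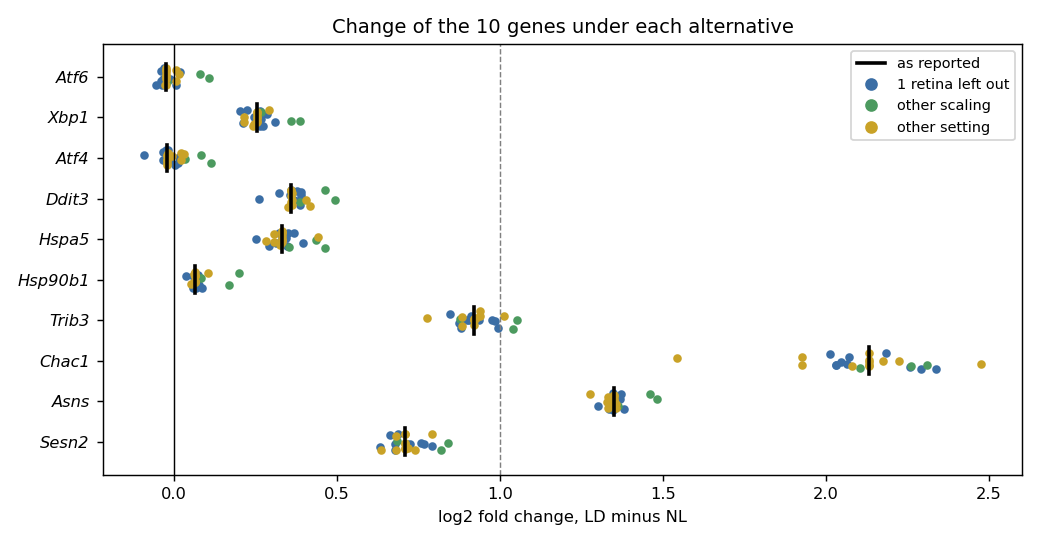
Log2 fold change of LD over NL of the 10 genes as reported (black bar) and under each alternative (points: 1 retina left out, another scaling, or another setting); the dashed line marks 2-fold. *Chac1* and *Asns* stay beyond 2-fold in all of them, *Trib3* lies on both sides of the line, and *Atf4* and *Atf6* lie on both sides of 0.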

How the data were processed

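Neural retina RNA (5 NL and 5 LD samples, grouped by their labels) was extracted with TRIzol and sequenced by a company that also normalized the data. Bowtie2 2.0.6, TopHat2 2.0.9 and the build mm8 are named in the submitters' processing notes, without their roles, yet the positions in the table were those of GRCm38 for all 10 members. The counting program and its use of strand are not given in the sources used here. The authors deposited FPKM values for 54532 genes. Multiplied by gene length and divided by the smallest step of its retina, the worth of 1 read, every value was whole to within 0.0001, which gave a depth of 18965090 to 26832535 reads. Before deposit, the library sizes had been multiplied by a factor of 0.951 to 0.968 in NL and 1.041 to 1.069 in LD retinas.

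Genes reaching 0.1 FPKM in 5 or more retinas were compared with limma 3.58.1 (R 4.3.3, intensity trend, no block) on log2(FPKM + 0.1), which understates the change of low genes, with Benjamini-Hochberg adjustment over all 24508 genes. Called means a fold change above 2 with an adjusted p under 0.01. Single genes were also tested by exact permutation over all splits of the retinas (numpy 2.4.6). The fit was tested on simulated data. The members, the pathway and marker lists and the tests were chosen with earlier results of these data known. Named are all members and 12 regulators. Each list added up to 3 called genes per direction, those with the largest change and a group mean of 1 FPKM or more. Other genes were named for a promoter match, for an overlap or as untested, or are said to be named after their values were seen. Promoters are RefSeq's (GRCm38.p6).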

Additional observations from a re-analysis of the deposited data

Results flagged for a closer look

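Of 54 groups of 5 values (27 named genes in NL and LD), 5 had a retina far from the others of its group by Dixon's criterion, where chance gives about 2.7. For *Ddit3*, LD-8 read 46.2 FPKM and the other LD retinas 32.2 to 34.3 FPKM. For *Mthfd2*, LD-8 read 13.3 FPKM and the others 8.80 to 9.29 FPKM. For *Eif2ak4*, LD-7 read 6.92 FPKM and the others 6.13 to 6.32 FPKM. For *Sdf2l1*, NL-7 read 4.51 FPKM and the other NL retinas 5.42 to 5.74 FPKM. For *Pycr1*, NL-5 read 0.288 FPKM and the others 0.394 to 0.419 FPKM.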

How the results depend on the processing

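No member or other named gene reversed a call. Of the 27 named genes, 16 kept the same call under all 25 alternatives. Members called higher numbered 2 with each retina left out in turn, 4 at an adjusted p under 0.01 with any fold change and 7 at an adjusted p under 0.05. For the other pathway genes those 2 thresholds gave 33 higher and 4 lower, and 41 higher and 7 lower. Over all genes they gave 2280 higher and 1898 lower, and 3543 higher and 3275 lower. A pseudocount of 1 gave 504 genes higher and 312 lower, and a filter of 1 FPKM gave 664 higher. For the replicate numbers that both groups share (1, 4, 7 and 8), correlations of same-numbered deviations were 0.06, 0.07, −0.01 and −0.09. Retinas with different numbers reached 0.11 (NL-7 with LD-8), so the same number did not go with a closer match. What the numbers stand for is not given, and a shared origin behind them was not tested. With the replicate block over these 8 retinas 550 genes were higher and 258 lower, and without it on the same retinas 369 were lower; 2 members were called under the block. Under it *Nupr1* (3.95), *Pycr1* (1.71) and *Slc7a11* (1.48) lost their calls. With the closest pairs averaged 366 genes were lower, and *Nupr1* (3.99) and *Slc7a11* (1.50) lost theirs; the cause was not tested. Without NL-1 and NL-8, chosen after seeing the values, *Trib3* (1.01) and *Atf5* (1.31) were called. Few reads stand behind the NL values of *Pycr1*, *Chac1*, *Nupr1* and *Cebpb*, with 23, 28, 28 and 29 in their lowest NL retina.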
